A study of Homo sapiens with 11 samples.

Results

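Copines are cytosolic proteins that bind membrane phospholipids when calcium rises, through paired C2 domains at one end, and that carry a von Willebrand factor A domain at the other end, which is thought to hold partner proteins. They are viewed as adaptors that bring signalling proteins to the plasma membrane. The tables held 7 copine genes of this account, CPNE1, CPNE2, CPNE3, CPNE4, CPNE5, CPNE7 and CPNE8, among 28152 gene symbols, taken by symbol. CPNE7 was the reason for the choice, because among all tested genes it ranked 1 by p-value between the treated and the vehicle tumours. Differences between those groups are therefore given for the copines as descriptions, with no p-value, and their counts past a threshold are printed only beside the share over all genes.

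The libraries came from tumours that the labels call BT474, a human breast cancer line described there as HR+/Her2+, grown in the mammary fat pad of female athymic nude mice. These animals lack T cells but keep other host cells, and their age was not given in the sources used here. All animals carried a slow-release pellet of 0.72 mg estradiol made for 90 days and were enrolled once tumours passed 95 cubic millimetres. The 6 vehicle libraries came from animals injected under the skin with mannitol in water, and the 5 evexomostat libraries from animals given evexomostat (SDX-7320), an inhibitor of methionine aminopeptidase 2, at 12 mpk in the same solution, every 4 days, all labelled day 33. Each library is 1 tumour, which is the replicate here, and all descend from 1 cell line.

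Library totals ranged from 22808033 to 39249329 counts, so that 3 counts, the floor used below, corresponded to 0.0764 to 0.132 reads per 1000000 counted reads (RPM); this covers counting error only. In vehicle replicate 001 the 100 most abundant genes took 23.9% of the counts, where they took 16.2% to 17.9% elsewhere, and its scaling factor was the lowest, 0.86. Several transcripts that define the labelled cells were low. ERBB2, which encodes HER2, averaged 53.7 RPM and ranked 4614 of 28152 symbols, its neighbour in the amplified region GRB7 averaged 0.303 RPM, ESR1 0.285 and PGR 0.0655, and the epithelial genes EPCAM and CDH1 averaged 3.03 and 0.456 RPM, while the luminal keratin gene KRT8 averaged 331.6 RPM and the mesenchymal filament gene VIM 1187 RPM. Of the other luminal genes listed, KRT18 averaged 148.6 RPM, GATA3 6.50, FOXA1 1.05 and KRT19 0.803. Of the other mesenchymal genes listed, CD44 averaged 832.3 RPM, CDH2 66.9 and ZEB1 28.6. The identity of the line was not tested, and the cells are called by their label. Skeletal muscle markers (9 genes, none at 0 in every library) summed to 5.61 to 23.2 RPM under vehicle and to 6.23 to 366.8 RPM under evexomostat, with the maximum in evexomostat replicate 005 and the next highest sum at 49.3. CKM, MYLPF and TNNT3 were near the floor and not tested. Their means were 0.159, 0.0793 and 0.118 RPM under vehicle and 0.181, 0.148 and 0.0326 RPM under evexomostat, so TNNT3 was lower there. All 6 tested muscle genes had log2 fold changes above 0, with 0 past the adjusted threshold in edgeR and 4 at an unadjusted p under 0.05, where 13.4% of all 16653 tested genes were; the part of muscle RNA in the results below was not tested. Sums for the other tissues were 390.8 to 2063 RPM under vehicle and 499.2 to 1122 under evexomostat for stroma, 8.79 to 22.9 and 9.75 to 14.0 for endothelium, 35.5 to 88.1 and 58.4 to 68.5 for leukocytes, and 0.259 to 1.69 and 0.252 to 2.65 for adipocytes, where 1 of 4 genes was at 0 in every library. In whole-tumour RNA, fewer cells of a type and less RNA per cell cannot be told apart.

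The copines are close relatives, and reads of one could in principle be counted on another. The coding sequences compared here are from GENCODE release 29 (GRCh38), with the longest coding sequence per gene. CPNE7 was identical to the other 6 genes at 62.5% to 72.7% of aligned coding bases, with CPNE8 the least and CPNE4 the most similar. The longest run of identical bases that CPNE7 shared with any of them was 35 bases, with CPNE2, and it was 18 bases or fewer with the remaining 5 genes. Sequencing reads were 150 bases long, so no read within this coding sequence of CPNE7 would be identical over its full length to the compared sequence of these relatives. CPNE6, outside this set, shared a run of 29 bases with CPNE7. Untranslated regions were not compared, and the assignment of reads with mismatches was not tested. The stretch shared with CPNE2 is shown because it is the longest identical run. The 35 shared bases are in capitals, with 15 coding bases on each side. It lies in exon 16 of CPNE7 (chr16:89595436-89595500, plus strand) and in exon 15 of CPNE2 (chr16:57146154-57146218, plus strand), both coding.
CPNE7: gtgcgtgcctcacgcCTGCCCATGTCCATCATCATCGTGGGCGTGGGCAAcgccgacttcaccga
CPNE2: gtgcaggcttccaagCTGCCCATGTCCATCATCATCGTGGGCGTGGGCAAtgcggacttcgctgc

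Of the 7 genes only CPNE1 had exons that overlap another annotated gene, with 930 of its 3608 exonic bases (25.8%) shared, of which 575 bases were shared with RBM12 on the same strand. RBM12 encodes an RNA-binding protein. CPNE1 and RBM12 also share their start site, and RefSeq lists one promoter window for both (GRCh38.p14, chr20:35664851-35665150, minus strand, 250 bases before the start and 50 after). It is shown because levels of the 2 genes can be set side by side below. The capitals mark the palindrome TGACGTCA, the consensus cyclic AMP response element.
CPNE1 and RBM12: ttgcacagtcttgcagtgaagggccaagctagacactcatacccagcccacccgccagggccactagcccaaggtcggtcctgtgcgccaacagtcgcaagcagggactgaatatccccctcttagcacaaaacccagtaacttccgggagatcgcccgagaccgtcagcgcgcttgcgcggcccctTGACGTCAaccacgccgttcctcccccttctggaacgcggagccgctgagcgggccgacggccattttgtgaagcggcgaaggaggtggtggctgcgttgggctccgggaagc
Searched on both strands, TGACGTCA occurs in 1.84% of 34943 promoter windows of this length. The windows of the copines present in the table matched it in CPNE1 alone, and CPNE3 and CPNE7 were not among the entries. The window of CPNE1 held none of the other motifs searched, CACGTG (in 7.23% of all windows), GGGCGG (44.9%), TGANTCA (7.72%) and TATAAA (11.6%).

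CPNE7 lies on chromosome 16 and was isolated as a candidate gene from a region often lost in breast cancer. It has been studied mainly in tooth formation, where its product was reported to bind nucleolin. Levels are given as counts per 1000000 with library sizes scaled by the trimmed mean of M-values (CPM). CPNE7 stood at 10.8, 10.9, 7.96, 9.21, 7.40 and 10.1 CPM in vehicle replicates 001, 003, 004, 005, 006 and 007. It stood at 50.4, 37.0, 26.1, 24.6 and 36.1 CPM in evexomostat replicates 002, 003, 004, 005 and 007. Every evexomostat library was above every vehicle library, and the lowest evexomostat value was 2.26 times the highest vehicle value. The means were 9.38 ± 1.45 (SD, n = 6) and 34.8 ± 10.4 CPM (SD, n = 5), and the log2 fold change was 1.89 (SE 0.20). These rest on 222 to 421 reads per vehicle library and 720 to 1623 per evexomostat library.

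The spread of CPNE7 among the treated tumours was wide. The highest evexomostat library was 2.05 times the lowest, against 1.47 times under vehicle, and the coefficients of variation were 29.7% and 15.5%, where read counting alone gives about 3.22% and 5.92%. Among 13068 genes with a mean log2 CPM of at least 1, 90.5% varied less than CPNE7 among the evexomostat tumours and 20.1% varied less among the vehicle tumours. The evexomostat library with the highest sum of muscle markers, replicate 005, had the lowest CPNE7 of its group. Without that library the log2 fold change was 2.00, and without both it and vehicle replicate 001 it was 2.04. The libraries with the highest stroma sums also had the lowest CPNE7 values of their group. They were vehicle replicates 004 and 006 (2063 and 1380 RPM) and evexomostat replicates 005 and 004 (1122 and 888.6 RPM). The remaining sums were 390.8 to 596.1 RPM under vehicle and 499.2 to 736.5 RPM under evexomostat. By mean over all libraries, the largest parts of this sum were the collagen genes COL3A1 (596.0 RPM) and COL1A1 (167.4 RPM). COL1A2 averaged 43.4 RPM, PDGFRB 26.7, LUM 1.05 and DCN 0.390, with LUM and DCN at 0 in 3 libraries each. The part of tissue mix in the spread of CPNE7 was not tested. By log2 fold change CPNE7 ranked 27 of 16653 tested genes, and 4 of the 5 largest were MYH4, TNNC2, ACTA1 and MYH2, which encode proteins of striated muscle.

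**Figure D1:**
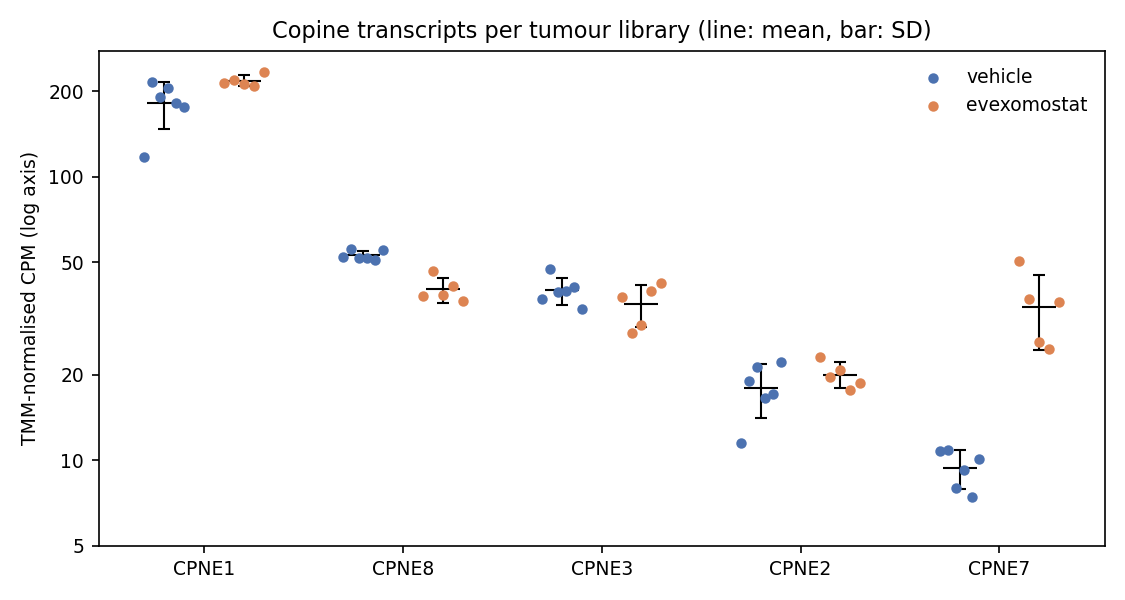
TMM-normalised CPM on a log axis for the 5 copines that passed the count filter, 1 point per tumour library (6 vehicle, 5 evexomostat), with the group mean as a line and the SD as a bar. The evexomostat points of CPNE7 (24.6 to 50.4 CPM) lie above all its vehicle points (7.40 to 10.9 CPM), those of CPNE8 lie below its vehicle points, and the groups overlap in CPNE1, CPNE2 and CPNE3.

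CPNE8 was the other copine whose groups did not overlap, in the opposite direction to CPNE7, with evexomostat lower as in 1.64% of all tested genes. It stood at 52.2, 55.7, 51.8, 51.7, 50.9 and 55.0 CPM in vehicle replicates 001, 003, 004, 005, 006 and 007. In evexomostat replicates 002, 003, 004, 005 and 007 it stood at 37.9, 46.6, 38.2, 41.0 and 36.4 CPM. The vehicle libraries lay close together, all above the evexomostat libraries, of which replicate 003 came nearest. The means were 52.9 ± 1.99 (SD, n = 6) and 40.02 ± 4.03 CPM (SD, n = 5), and the log2 fold change was -0.40 (SE 0.10). The separation depended on the scaling: in the deposited RPM, vehicle replicate 001 was at 44.9 and evexomostat replicate 003 at 50.4, so the groups overlapped, and with library totals alone the log2 fold change was -0.30.

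CPNE8 varied little among the vehicle tumours. On the scaled CPM its coefficient of variation over the 6 vehicle tumours was 3.75%, and 0.168% of the 13068 genes varied less, while read counting alone gives about 2.48%. On the deposited RPM it was 6.73%, and 1.45% of the genes varied less. Among the evexomostat tumours its coefficient of variation was 10.1%, and 30.9% of the genes varied less.

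CPNE1, whose product has been reported to restrain NF-kB signalling through its subunit RELA, was the most abundant copine, also per length (below). It stood at 117.6, 214.8, 191.3, 206.0, 181.6 and 176.2 CPM in vehicle replicates 001, 003, 004, 005, 006 and 007. In evexomostat replicates 002, 003, 004, 005 and 007 it stood at 214.5, 218.8, 213.0, 209.0 and 233.8 CPM. Vehicle replicate 001 was the lowest by a wide margin, and only vehicle replicate 003 reached into the evexomostat range. The log2 fold change was 0.27 (SE 0.15), from 181.2 ± 34.4 (SD, n = 6) to 217.8 ± 9.62 CPM (SD, n = 5), and 0.17 without vehicle replicate 001.

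RBM12, which shares the start site of CPNE1, averaged 75.3 ± 4.54 CPM in the 6 vehicle tumours and 76.5 ± 10.99 CPM in the 5 evexomostat tumours (SD). Its log2 fold change was 0.02, with an SE of 0.12 and an adjusted p of 0.962 in edgeR. Vehicle replicate 001, lowest of its group in CPNE1, was the highest of its group in RBM12 at 81.3 CPM. It held 1.45 CPNE1 reads per RBM12 read, where the remaining vehicle libraries held 2.25 to 2.91 and the evexomostat libraries 2.51 to 3.71. How the authors counted reads in the shared exons was not given in the sources used here.

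CPNE2 and CPNE3 overlapped between the groups. CPNE2 ranged from 11.5 to 22.3 CPM under vehicle (median 18.1) and from 17.7 to 23.2 CPM under evexomostat, with its minimum in vehicle replicate 001. Its log2 fold change was 0.15 (SE 0.17), and 0.062 without that library. CPNE3, whose product was reported to bind ERBB2 and RACK1 and to promote cell migration, ranged from 34.3 to 47.2 CPM under vehicle (median 39.4) and from 28.2 to 42.0 CPM under evexomostat. Its log2 fold change was -0.16 (SE 0.14), with evexomostat replicates 003 and 004 below every vehicle library.

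CPNE4 and CPNE5 were at the edge of detection and did not pass the count filter, so no fold change was fitted. CPNE4 had 3 to 7 reads per vehicle library and 1 to 7 per evexomostat library, and CPNE5 had 1 to 15 and 1 to 9. In the deposited RPM their highest values were 0.244 and 0.382. A difference between the groups in these 2 genes was not detectable at this depth.

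Of the 7 copines 5 were tested, and 1, CPNE7, was past an adjusted p-value of 0.05 in edgeR's quasi-likelihood test, where 0.606% of 16653 genes were. Higher genes made up 0.174% of all tested and lower genes 0.432%. The share of higher genes among all calls was 28.7%, and it was 40% with upper quartile scaling and 54.8% with library totals alone. The groups did not overlap in 2 of the 5, CPNE7 (higher, as in 1.33% of all genes) and CPNE8 (lower, as in 1.64%), where 2.97% of all genes did not overlap. Because the family was chosen from this contrast, nothing is read from these counts. CPNE8 was also past the threshold in DESeq2, with limma-voom quality weights and without vehicle replicate 001, fits in which 3.9%, 6.36% and 5.22% of all genes were past it, and nothing is read from that either. Over the 5 genes the log2 fold changes ran from -0.40 to 1.89, and the median over all tested genes was -0.04. The authors' deposited table lists log2 fold changes of 1.99 for CPNE7, 0.35 for CPNE1, 0.24 for CPNE2, -0.08 for CPNE3 and -0.30 for CPNE8.

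**Figure D2:**
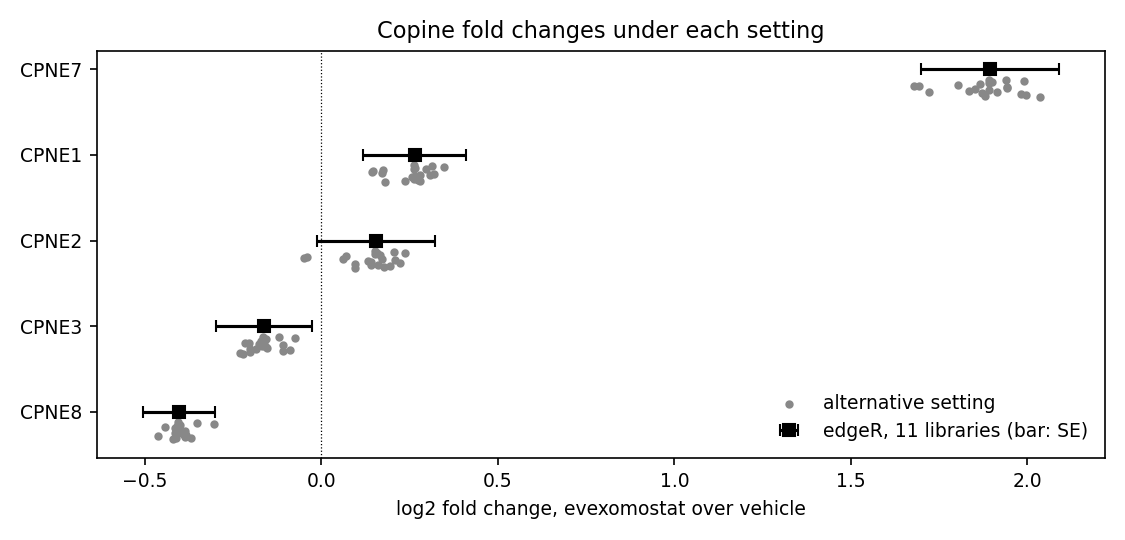
Log2 fold change of evexomostat over vehicle for the 5 tested copines. Black squares are the edgeR values from all 11 libraries with their SE, and grey points are the alternative settings. CPNE7 stays between 1.68 and 2.04 in the alternatives, CPNE8 stays below 0, and CPNE2 crosses 0.

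Levels of different genes were compared per kilobase of transcript, as CPM per kb. Under vehicle the order was CPNE1 (92.4), CPNE8 (18.4), CPNE3 (8.16), CPNE2 (7.76), CPNE7 (3.70), CPNE5 (0.056) and CPNE4 (0.055). The ranges of CPNE3 and CPNE2 overlapped, as did those of CPNE5 and CPNE4, so the order within each of these pairs is not beyond their spread. The other neighbours in the order did not overlap with these lengths, the median over transcripts. With the longest transcript as length, CPNE2 (3.35 to 6.46) overlapped CPNE7 (2.78 to 4.09) and no longer overlapped CPNE3 (7.04 to 9.70).

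Under evexomostat CPNE7 ranked 3 among the copines, at 13.7 ± 4.09 CPM per kb (SD, n = 5), next to CPNE8 at 13.9 ± 1.40. The ranges of these 2 genes overlapped (9.71 to 19.9 and 12.7 to 16.2), and CPNE7 stood above CPNE8 when the longest transcript was used as length (13.1 against 11.5). The lowest CPNE7 library also reached into the range of CPNE2, which ended at 10.004. Of the summed level of the 7 copines per length, CPNE7 held 2.92% ± 0.821 in the vehicle libraries and 8.82% ± 2.31 in the evexomostat libraries (SD). CPNE8 held 14.4% ± 2.43 and 9.02% ± 1.06, and CPNE1 70.3% ± 3.87 and 71.8% ± 2.19.

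**Figure D3:**
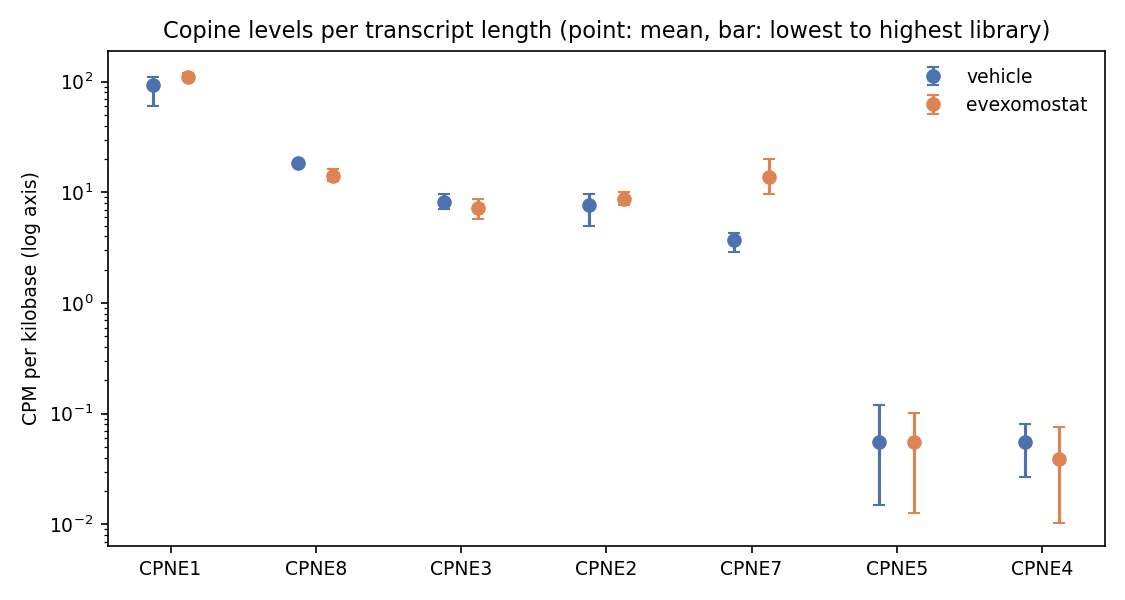
CPM per kilobase of transcript on a log axis for the 7 copines, in the order of their vehicle means, with points for group means and bars from the lowest to the highest library. CPNE7 goes from 3.70 under vehicle to 13.7 under evexomostat, beside CPNE8 at 13.9, and CPNE5 and CPNE4 lie near 0.05.

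With each group's mean subtracted, the correlation of log2 CPM with CPNE7 over the 11 libraries was -0.09 for CPNE1, 0.066 for CPNE2, 0.083 for CPNE3 and 0.081 for CPNE8. Without vehicle replicate 001 these were 0.34, 0.45, 0.13 and 0.10. CPNE1 and CPNE2 correlated at 0.67, but at -0.34 without vehicle replicate 001, which was lowest in both. All these values share libraries and scaling factors and are descriptions.

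Genes with the pattern most like CPNE7 were sought among 13068 genes. Over all 11 libraries the 5 highest correlations of log2 CPM were with SLC25A39 (0.95), CBS (0.94), CMTM3 (0.93), NOC4L (0.93) and MEAF6 (0.93). SLC25A39 encodes a mitochondrial carrier needed for glutathione import, and CBS the enzyme that joins homocysteine and serine in transsulfuration. SLC25A39 averaged 102.7 ± 6.23 CPM in vehicle and 133.9 ± 7.69 CPM in evexomostat tumours (SD), a log2 fold change of 0.38. CBS averaged 9.41 ± 1.69 and 21.1 ± 3.39 CPM, a log2 fold change of 1.16. The groups did not overlap in any of the 5, so these correlations include the difference between the groups.

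With the group means subtracted, a different set of 5 genes was most like CPNE7. These were THOC1 (0.93), TPRA1 (0.86), RAB3GAP2 (0.82), AUP1 (0.82) and ZNRF1 (0.82). THOC1 encodes a subunit of the THO complex, which couples transcription to RNA export. It averaged 55.7 ± 5.85 CPM in vehicle and 58.9 ± 6.70 CPM in evexomostat tumours (SD), and the groups overlapped. Without evexomostat replicate 002, the library highest in CPNE7, the correlation with THOC1 was 0.94. Within each group, THOC1, TPRA1, AUP1 and ZNRF1 were lowest in the libraries with the highest stroma sums (largest part COL3A1), as CPNE7 was. RAB3GAP2 was so under vehicle, but under evexomostat replicate 007 was below replicate 005 (66.7 against 67.1 CPM). The part of tissue mix in these correlations was not tested. All 5 are the highest of 13068 correlations over 11 libraries that share scaling factors, and they are descriptions.

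**Figure D4:**
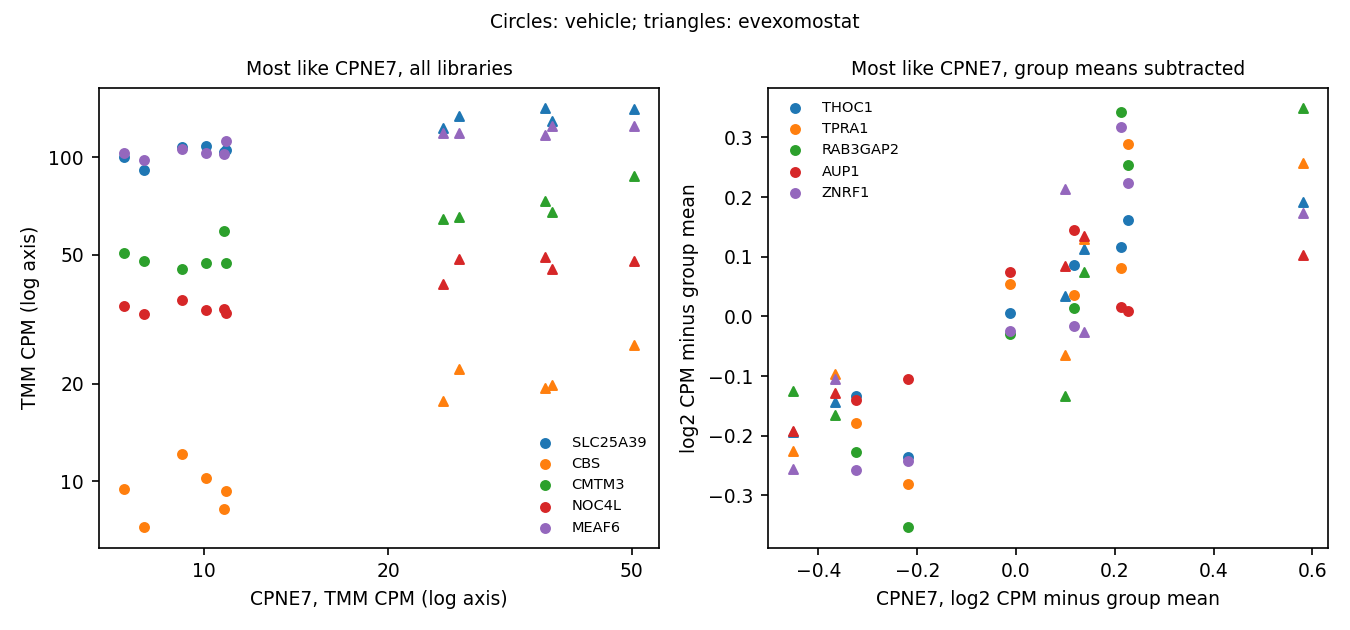
Left, CPM on log axes of the 5 genes most like CPNE7 over all 11 libraries, against CPNE7, and right, log2 CPM minus the group mean for the 5 genes most like it after that subtraction; circles are vehicle and triangles evexomostat libraries. On the left vehicle and evexomostat points form separate clouds for each gene, and on the right they mix along one trend, with THOC1 at a correlation of 0.93.

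The genes around CPNE7 on chromosome 16 were compared as its neighbours. Of the 5 protein-coding RefSeq genes on each side, 8 were in the table and 7 were tested, and 0 of the 7 were past the adjusted threshold in edgeR (1 at an unadjusted p under 0.05, CDK10, where 13.4% of all genes were). CDK10, a cyclin-dependent kinase gene, was at a log2 fold change of 0.45, with SE 0.15 and an adjusted p of 0.216 in edgeR. The direct neighbour RPL13, a ribosomal protein gene, was at -0.02 (SE 0.36, edgeR adjusted p 0.990), a value set by vehicle replicate 001, which stood at 3878 CPM against 920.2 to 1289 CPM in the remaining vehicle and 1181 to 1922 CPM in the evexomostat tumours. Without that library RPL13 was at 0.52 (edgeR adjusted p 0.0520), and it was past the threshold without that library and evexomostat replicate 005 (0.58, edgeR adjusted p 0.0477; 2.57% of all genes past it) and in an unblocked fit of the 8 libraries whose numbers occur in both groups (0.61, edgeR adjusted p 0.0491; 4.42%). SPG7, a mitochondrial protease gene, was at 0.32 (SE 0.21, edgeR adjusted p 0.574). DPEP1, the direct neighbour on the other side, averaged 0.0453 RPM and was not tested. The 7 genes had a median log2 fold change of 0.18, with 6 of 7 above 0, against 44.6% of all tested genes, and a median of 0.31 without vehicle replicate 001.

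Transcripts of proteins reported to bind copines were measured as a list of 11 genes, and 0 were past the threshold in edgeR (1 at an unadjusted p under 0.05, against 13.4% of all genes). That one was MAP2K1, the kinase MEK1, at -0.47 (SE 0.21, edgeR adjusted p 0.334). ERBB2, reported to bind CPNE3, was at 0.05 (SE 0.19, edgeR adjusted p 0.951), and RACK1, its scaffold partner, at 0.10 (SE 0.16, edgeR adjusted p 0.847). RELA, linked to CPNE1, was at -0.27 (SE 0.21, edgeR adjusted p 0.643) and NCL, which encodes nucleolin, the reported partner of CPNE7, at 0.15 (SE 0.17, edgeR adjusted p 0.771). UBE2M, the conjugating enzyme for NEDD8, was at 0.21, CDC42BPB, a kinase regulated by CDC42, at 0.13 and RAC1, a small GTPase, at -0.16. The cytoskeletal linker RDX was at -0.15, the phosphatase gene PPP5C at 0.03 and the dynein adaptor BICD2 at 0.02. The median of the list was 0.03, with 7 of 11 above 0. RELA was past the threshold without vehicle replicate 001, when 5.22% of all genes were, and both RELA and MAP2K1 were past it in the unblocked fit of 8 libraries, when 4.42% were. The sign differed in at least 1 alternative for PPP5C, CDC42BPB, RDX, BICD2, ERBB2, NCL and RAC1.

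Other proteins that use C2 domains or calcium to meet membranes were compared as further lists. Of 42 genes for proteins with several C2 domains (synaptotagmins, ferlins, extended synaptotagmins and relatives), 33 were tested and 0 were past the threshold in edgeR, with 5 (against 13.4% of all genes) at an unadjusted p under 0.05. The 4 smallest p-values were in TC2N (log2 fold change -1.40, SE 0.32, edgeR adjusted p 0.0714), UNC13A (-1.18, SE 0.32, 0.125), DOC2A (1.11, SE 0.37, 0.207) and UNC13D (0.71, SE 0.28, 0.284). TC2N was the only one of the 33 whose groups did not overlap, with all evexomostat libraries lower, as in 1.64% of all genes. UNC13A and TC2N were past the threshold in DESeq2, with quality weights and without vehicle replicate 001, where 3.9%, 6.36% and 5.22% of all genes were. UNC13A alone of the 2 was past it in the unblocked fit of 8 libraries (4.42%) and without vehicle replicate 001 and evexomostat replicate 005 (2.57%). MCTP1, also of this list, was past it in the unblocked fit too, and was at -0.48 (SE 0.21, edgeR adjusted p 0.326) over all 11 libraries. The median of the 33 was -0.12, and it was -0.24 without vehicle replicate 001 and -0.27 with quality weights.

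Annexins bind membranes in the presence of calcium through repeats unrelated to C2 domains. Of 12 annexin genes 11 were tested, and 0 were past the threshold in edgeR (0.606% of all genes were), at an unadjusted p under 0.05 (13.4%) and in DESeq2 (3.9%). The smallest p-values were in ANXA3 (log2 fold change 0.73, SE 0.41, edgeR adjusted p 0.482), ANXA5 (-0.13, SE 0.12, 0.702), ANXA8 (-0.41, SE 0.42, 0.746) and ANXA10 (-0.29, SE 0.31, 0.759). The median over the 11 was -0.03, and ANXA2, the most abundant, averaged 2864 RPM.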

How the data were processed

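RNA of 11 tumours, 1 library each, was extracted from a frozen portion and sequenced in paired-end mode, per the labels' protocols. The submitters' processing notes name bcl2fastq 2.17, STAR 2.7.5c, featureCounts, Subread and edgeR with GRCh37 and hg19; annotation, use of strand and handling of mouse reads were not given in the sources used here. The deposited count table holds raw read counts per symbol. The deposited RPM table holds each count divided by its column total and times 1000000, checked to within 2.3e-13. The authors' deposited comparison table gives log2 fold changes, p-values and group means in RPM. Columns were matched to libraries by the code in the labels.

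All 28152 symbols were filtered with filterByExpr (minimum count 10, minimum total 15; 16653 kept), scaled by TMM and compared with edgeR 4.0.16's quasi-likelihood test in R 4.3.3 with Benjamini-Hochberg adjustment at 0.05. SEs were taken from the F statistic and the fold change. log2 CPM used a prior count of 2. Lengths are the median over protein-coding transcripts in GENCODE 29's basic set. Alternatives used DESeq2 1.42.0 and limma 3.58.1. The test was tested on simulated data. No 2 libraries of a group were duplicates (chi-square per degree of freedom 16.6 or more).

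Members and lists were chosen with earlier results of these data known. Named genes are the copines, all listed partners, the genes past the threshold (or the 4 with the smallest p-values) of the C2 and annexin lists, the neighbours of CPNE7 by gene order in RefSeq (GRCh38.p14), and the 5 genes most correlated with CPNE7. RBM12, and the members named for libraries left out, were chosen after values were seen.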

Additional observations from a re-analysis of the deposited data

How the results depend on the processing

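The CPNE7 log2 fold change was 1.68 to 2.04 over 21 alternatives and 1.72 to 2.00 over the 11 that left out 1 library. Its level per length was 3.53 to 3.86 CPM per kb under vehicle and 12.2 to 14.8 under evexomostat. CPNE2 reversed on 8 libraries, to -0.041 with the replicate block and -0.048 without it, as did the median of copine partners, to -0.099 and -0.094. The partner median was also negative without vehicle replicate 001 (-0.035) and without that library and evexomostat replicate 005 together (-0.063). The median of the CPNE7 neighbours was 0.42 on 8 libraries with the block, 0.39 on them without it and 0.31 without vehicle replicate 001. Genes past the threshold numbered 101, and 62 with library totals only, 649 with DESeq2, 1059 with limma-voom quality weights 733 with no replicate block on 8 libraries, and 431 without vehicle replicate 001 and evexomostat replicate 005 together, an alternative chosen after seeing the data. Leaving out 1 library gave 1 to 865, with 865 without vehicle replicate 001, and 1, 2 and 3 without evexomostat replicates 005, 002 and 007. Genes of the 4 related lists past the threshold numbered 0, and 2 with DESeq2 or quality weights, 5 on 8 libraries with no block, 0 to 3 leaving out 1 library, and 2 without both libraries just named. The cause was not tested. Both groups have replicates 003, 004, 005 and 007, and libraries of equal number had deviations with correlations of -0.27, 0.066, 0.049 and -0.10. The labels name no pairing, and so few pairs cannot decide whether equal numbers stand for a shared batch. With the block, 107 genes were past the threshold and the CPNE7 log2 fold change was 1.68. The planned comparison of copine proteins was not run, and coding sequences were compared instead. Depth limits CPNE4 and CPNE5.

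Of the named genes outside the family, those below changed sign, none with an adjusted p under 0.05 except RPL13. Leaving out 1 library gave -0.040 to 0.091 for PPP5C, -0.035 to 0.23 for CDC42BPB, -0.28 to 0.060 for RDX, -0.098 to 0.12 for BICD2, -0.080 to 0.13 for ERBB2, -0.24 to 0.0019 for RAC1, -0.62 to 0.041 for ANXA8, -0.12 to 0.52 for RPL13 and -0.023 to 0.10 for RBM12. On 8 libraries with and without the replicate block, PPP5C was -0.099 and -0.094, CDC42BPB -0.031 and -0.025, BICD2 -0.25 and -0.23, ERBB2 -0.13 and -0.14, RPL13 0.59 and 0.61 and RBM12 -0.037 and -0.025, and NCL was -0.014 with the block. Quality weights gave 0.0026 for RDX, -0.057 for BICD2, -0.062 for ERBB2 and 0.40 for RPL13. Without vehicle replicate 001 and evexomostat replicate 005 together, PPP5C was -0.064, CDC42BPB -0.063, RDX 0.069, BICD2 -0.11, ERBB2 -0.088, RAC1 0.015 and RPL13 0.58. RPL13 was 0.013 with upper quartile scaling, 0.13 with library totals and 0.17 with limma-voom.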

Other observations

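The tables also held the copines CPNE6 and CPNE9. CPNE6, which encodes a copine found mainly in brain, had 0 to 2 reads per library and 4 in all. CPNE9 passed the count filter and varied widely, from 0.257 to 2.32 CPM under vehicle and from 0.715 to 2.15 CPM under evexomostat, with a log2 fold change of 0.007 (SE 0.44). CPNE9 was therefore more abundant than CPNE4 or CPNE5 in these tumours, at 0.697 CPM per kb under vehicle.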
